A study of Mus musculus with 17 samples.

Results

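The genes Il1a, Il1b, Il1rn, Il1r2, Nlrp3 and Casp1, which encode ligands, antagonist, decoy receptor and inflammasome parts of the interleukin-1 system, were followed through mouse pancreatic tumours and cultured spleen cells. These 6 genes were chosen by symbol for their roles, out of 48397 genes in the bulk count tables and 28208 genes common to the 5 single-cell matrices, and all 6 were present in both. Interleukin-1α (Il1a) and interleukin-1β (Il1b) signal through the receptor Il1r1 and its partner Il1rap to MyD88 and NF-kB. The receptor antagonist Il1rn occupies that receptor without signalling, and Il1r2 is a decoy receptor that binds the ligands and lacks the signalling domain. Nlrp3 is the sensor of an inflammasome whose protease, Casp1, cleaves the precursor of interleukin-1β, and macrophages and neutrophils are known sources of these proteins in pancreatic tumours.

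The single-cell data came from untreated mice bearing orthotopic pancreatic tumours, 3 weeks after implantation, with 1 library for each of 5 genotypes. The genotypes were PDL1 floxed/floxed-CD4Cre (flfl_CD4Cre), PDL1 floxed/WT-CD4Cre (flWT_CD4Cre), CD4Cre, PDL1 floxed/floxed without Cre (flfl) and WT. Cre under the Cd4 promoter recombines floxed alleles in T-lineage cells, so these groups were made to remove PD-L1, the product of Cd274, from T cells, and are read here in the myeloid cells around them. The bulk data were 12 libraries labelled as splenic T cells of WT mice stimulated with antibodies to CD3 and CD28, with 3 libraries each titled PD1_Fc, Ctrl_Fc, PDL1_Fc and Control. PD1_Fc is soluble PD-1 joined to an antibody Fc part and Ctrl_Fc its control protein, both used at 2.5 ug/ml, and PDL1_Fc is named by its title alone. Control wells had the stimulus alone, and activation was read at 72 h. No source used here gives the age or number of animals.

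Of 23150 barcodes, 16202 cells were kept, 2796 to 4196 per library, with median depths of 6117 to 13677 UMIs (unique molecular identifiers, 1 per captured RNA molecule). The flfl_CD4Cre, flWT_CD4Cre and CD4Cre libraries shared 26.5% to 34.7% of their barcodes pairwise, 1414 to 1856 barcodes a pair, while no other pair shared more than 12. A shared barcode held far more UMIs in 1 of the libraries, with median ratios of 30.7 to 57.0 between them. The 3561 copies with the fewer UMIs were therefore left out. Keeping them moved the 90 levels at 50 CPM or more (CPM being the UMIs or reads of a gene scaled to the same total in each sum) in classes of 50 cells by factors of 0.945 to 1.11. In macrophage-like cells of the flfl_CD4Cre, flWT_CD4Cre and CD4Cre libraries, for example, Il1b was 195, 344 and 168 CPM without the copies, and 195, 339 and 168 CPM with them. These 3 libraries also share a longer gene annotation than the flfl and WT libraries, so levels were compared within each of these sets and given side by side across them.

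Cells were assigned to a class from the UMIs of marker genes, and each class carries the ending "-like". The 478 neutrophil-like, 1232 monocyte-like and 4941 macrophage-like cells were led by genes such as S100a8, Ly6c2 and C1qa, with 3 to 5 markers of their own class and 0 of another class among the 10 leading genes of each. The labels call the cells tumour-infiltrating T cells and, elsewhere, sorted CD45+ leukocytes. Only 1185 of the kept cells were T-like, and 1441 were tumour epithelial-like cells led by the keratins Krt8 and Krt18. Cd274 in T-like cells was 46.7 CPM (27.7 to 73.8, exact 95% Poisson interval) in flfl_CD4Cre, 37.3 (24.98 to 53.6) in flWT_CD4Cre and 67.1 (51.4 to 86.0) in CD4Cre, from 18, 29 and 62 UMIs, and 10.2 in flfl and 8.87 in WT. The level in flfl_CD4Cre thus did not differ from the others of its set beyond counting error. T-like cells served as the measure of free RNA for Il1b and Il1rn, and not for the other members. Their Il1b level was 5.19, 11.6 and 28.1 CPM in the flfl_CD4Cre, flWT_CD4Cre and CD4Cre libraries, but 282 CPM in flfl and 210 CPM in WT.

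The genes lie on mouse chromosomes 1, 2, 9 and 11 of GRCm38, the build also named mm10. Il1a (chr2:129299610-129309972) and Il1b (chr2:129364570-129371139) are neighbours on the reverse strand, and Il1rn (chr2:24336853-24351494, forward strand) lies elsewhere on the same chromosome. Il1r2 spans chr1:40074079-40125231, Nlrp3 chr11:59541568-59566956 and Casp1 chr9:5298517-5307265, all on the forward strand. The 250 bases before the transcription start are shown for both ligands, the antagonist and the caspase. The windows of Il1r2 and Nlrp3 were searched and are not shown. Capitals mark matches to the letters listed after them, and the sequences are from RefSeq on GRCm38.p6. The gene spans are from GENCODE M21, whose start of Il1rn lies 7 bases before the RefSeq start.
Il1a (chr2:129309973-129310222, reverse strand): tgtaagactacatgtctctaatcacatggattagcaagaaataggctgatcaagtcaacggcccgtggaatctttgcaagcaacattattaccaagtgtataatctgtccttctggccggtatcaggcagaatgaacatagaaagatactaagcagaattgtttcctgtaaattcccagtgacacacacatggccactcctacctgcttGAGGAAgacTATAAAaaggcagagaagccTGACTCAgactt
Il1b (chr2:129371140-129371389, reverse strand): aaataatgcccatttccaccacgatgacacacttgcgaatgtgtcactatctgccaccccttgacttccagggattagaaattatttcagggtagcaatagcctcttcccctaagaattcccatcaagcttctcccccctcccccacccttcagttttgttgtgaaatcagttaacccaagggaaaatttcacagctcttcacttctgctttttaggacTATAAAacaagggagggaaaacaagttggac
Il1rn (chr2:24336610-24336859, forward strand): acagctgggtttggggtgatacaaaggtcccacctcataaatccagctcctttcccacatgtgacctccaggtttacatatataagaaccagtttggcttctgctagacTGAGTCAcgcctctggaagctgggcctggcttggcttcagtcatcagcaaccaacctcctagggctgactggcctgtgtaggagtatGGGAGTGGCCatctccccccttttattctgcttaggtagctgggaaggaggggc
Casp1 (chr9:5298267-5298516, forward strand): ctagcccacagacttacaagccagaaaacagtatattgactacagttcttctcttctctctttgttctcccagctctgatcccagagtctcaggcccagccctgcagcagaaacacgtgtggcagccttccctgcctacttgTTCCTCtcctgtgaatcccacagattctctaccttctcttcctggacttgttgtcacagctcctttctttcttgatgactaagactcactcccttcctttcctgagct

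In the Il1a window the capitals are a PU.1 core (GAGGAA) at -41, a TATA box (TATAAA) at -32 and an AP-1 motif (TGANTCA) at -12, counted from the start. The Il1b window holds the TATA box at -31. The Il1rn window holds an AP-1 motif at -141 and an NF-kB motif (GGGA and CC with 4 bases of any kind between them) at -54, and the Casp1 window a PU.1 core at -108, read on the other strand. Both strands were searched, and overlaps were allowed. Of 32851 windows of this length, 23.3% hold the PU.1 core, 6.75% the AP-1 motif, 17.6% the NF-kB motif, 12.4% the TATA box and 9.56% the C/EBP motif (TTGCNNAA). Of the 6 genes, whose 9 annotated windows were searched, 3 had a PU.1 core, 2 each an AP-1, NF-kB or TATA match and none a C/EBP match. Counted by window, as in the shares above, the PU.1 core was in 3 of 9. The AP-1, NF-kB and TATA matches were in 2 of 9 windows each. A match describes the letters and does not show a bound factor.

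Both ligands, the antagonist, the decoy receptor and Nlrp3 had their highest CPM in neutrophil-like cells in each of the 5 libraries. Casp1 had its highest mean over libraries in monocyte-like cells. CPM is a share of captured RNA, and neutrophil-like cells were shallow. Their median depths were 2441 to 6392 UMIs, against 11882 to 16701 in macrophage-like cells. In flfl_CD4Cre, 83 neutrophil-like cells held 489 Il1b UMIs and 414 monocyte-like cells held 2699. In flWT_CD4Cre, 169 neutrophil-like cells held 2577 and 281 monocyte-like cells held 2758. The order by UMIs per cell can thus differ from that by CPM, and it was not ranked. Il1b reached 2131 CPM in neutrophil-like cells of flfl_CD4Cre, 4316 in flWT_CD4Cre and 1339 in CD4Cre, and 8226 in flfl and 1685 in WT. In monocyte-like cells Il1b was 527, 788 and 348 CPM in the flfl_CD4Cre, flWT_CD4Cre and CD4Cre libraries, and 2229 and 659 CPM in flfl and WT. In macrophage-like cells it was 195, 344 and 168 CPM, and 1354 and 683 CPM, in the same order of libraries. Neutrophil-like cells were thus 2.47 to 5.48 times above the next class within each library, with counting intervals (exact 95% Poisson intervals, which cover counting error alone) apart in 5 of 5 libraries. Migratory DC-like cells, dendritic cells with Ccr7 and Fscn1, averaged 458 ± 397 CPM and cDC2-like cells 500 ± 527 CPM (SD between libraries, n = 5). The 5 libraries are different genotypes, so this SD holds genotype, animal and library together. Leaving out the flfl library, where Il1b was highest in each of these classes, lowered the mean over libraries to 581 CPM in monocyte-like cells, against 910 with it, and to 347 CPM in macrophage-like cells, against 549 with it. The migratory DC-like and cDC2-like means were 283 and 277 CPM without that library.

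**Figure D1:**
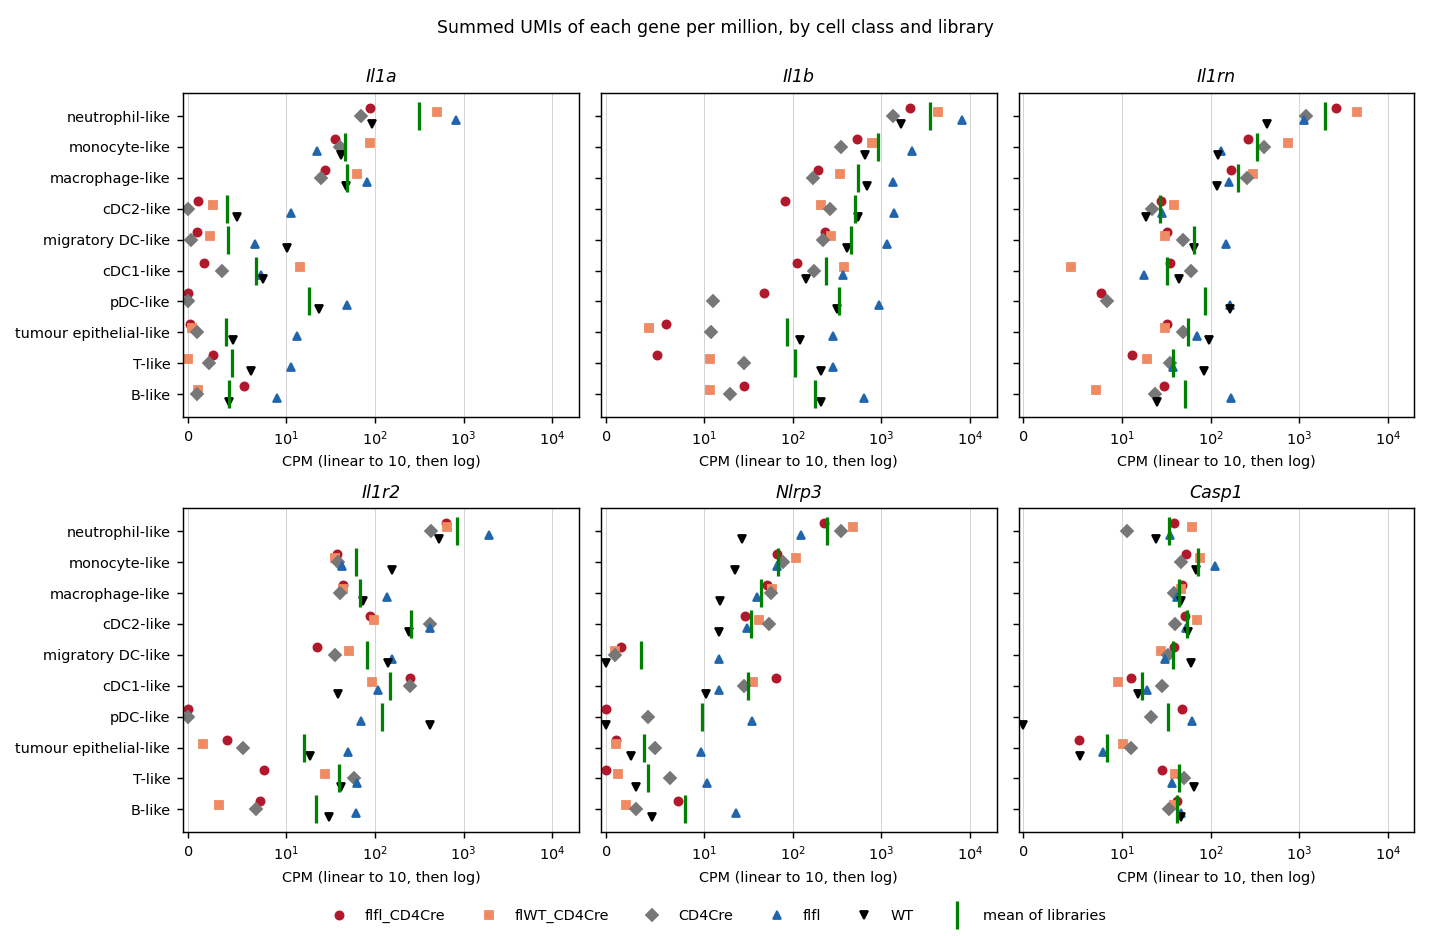
Summed UMIs of each gene as CPM (horizontal axis, linear to 10 and then logarithmic) for 10 cell classes (vertical axis), with 1 point per library and a green bar at the mean of the libraries with at least 10 cells of the class. The neutrophil-like points stand highest for Il1a, Il1b, Il1rn, Il1r2 and Nlrp3, whereas the Casp1 points lie close together over most leukocyte classes.

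Il1a was found mainly in neutrophil-like, macrophage-like and monocyte-like cells. It was 87.2, 506 and 69.3 CPM in neutrophil-like cells of flfl_CD4Cre, flWT_CD4Cre and CD4Cre, and 817 and 93.1 CPM in those of flfl and WT. Macrophage-like cells averaged 48.8 ± 24.0 CPM and monocyte-like cells 45.4 ± 25.2 CPM (SD, n = 5 libraries), and their order differed between libraries. Monocyte-like cells stood higher in flfl_CD4Cre (35.5 against 27.5 CPM), flWT_CD4Cre (88.3 against 62.7) and CD4Cre (40.3 against 24.9), with counting intervals apart. They stood lower in flfl (22.0 against 81.8 CPM, intervals apart), and in WT the intervals overlapped. Dendritic, lymphoid and tumour epithelial-like classes averaged 3.89 to 18.1 CPM. The neutrophil-like lead was 1.72 to 9.98 times the next class, and its counting interval overlapped that of monocyte-like cells in CD4Cre, where it rested on 12 UMIs. Without the flfl library the neutrophil-like mean was 189 CPM, against 314 with it.

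The antagonist Il1rn also stood highest in neutrophil-like cells, with large differences between libraries. It was 2628, 4479 and 1195 CPM in neutrophil-like cells of flfl_CD4Cre, flWT_CD4Cre and CD4Cre, and 1121 and 430 CPM in those of flfl and WT. In monocyte-like cells it was 263, 750 and 397 CPM, and 130 and 122 CPM, in the same order. In macrophage-like cells it was 172, 305 and 261 CPM, and 161 and 119 CPM. The neutrophil-like level was 2.60 to 10.0 times the next class, with intervals apart in 5 of 5 libraries. Tumour epithelial-like cells held 30.5 to 96.8 CPM of Il1rn, which was 1.14 to 2.50 times the T-like level of their own library. Their Il1b was 0.384 to 1.18 times the T-like level. Median depths were 28923 to 41898 UMIs in tumour epithelial-like cells and 6017 to 8135.5 UMIs in T-like cells. Whether this Il1b came from free RNA was not tested.

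Il1r2, the decoy receptor, was also found in dendritic cells. Its level was 632, 643 and 433 CPM in neutrophil-like cells of flfl_CD4Cre, flWT_CD4Cre and CD4Cre, and 1931 and 532 CPM in those of flfl and WT. In cDC2-like cells it was 87.8, 97.9 and 421 CPM, and 421 and 242 CPM, in the same order. In cDC1-like cells it was 248, 93.8 and 249 CPM, and 108 and 38.4 CPM. The cDC1-like or cDC2-like cells thus came second in 4 of 5 libraries, and pDC-like cells in WT. Neutrophil-like cells stood apart from the next class in 3 of 5 libraries, and in CD4Cre they were 1.03 times the cDC2-like level. Macrophage-like and monocyte-like cells were lower, at 67.6 ± 41.3 and 61.5 ± 51.7 CPM (SD, n = 5 libraries), and the monocyte-like mean was 38.5 CPM without the WT library. Their order differed between libraries, with a monocyte-like level 0.310 times the macrophage-like level in flfl and 2.07 times in WT. The T-like level was 39.5 ± 22.7 CPM, and the macrophage-like level was 0.683 to 5.57 times the T-like level of the same library. In CD4Cre, T-like cells held 58.4 CPM of Il1r2, against 39.9 CPM in macrophage-like and 6.91 CPM in B-like cells. The T-like level of Il1r2 was thus not taken as a measure of free RNA.

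Nlrp3 followed the order of neutrophil-like, monocyte-like and macrophage-like cells. Neutrophil-like cells held 227, 481 and 352 CPM in flfl_CD4Cre, flWT_CD4Cre and CD4Cre, and 124 and 26.8 CPM in flfl and WT. Monocyte-like cells averaged 68.1 ± 30.7 CPM, macrophage-like cells 44.3 ± 17.9 CPM, and migratory DC-like cells 3.64 ± 6.23 CPM (SD, n = 5 libraries). The monocyte-like level exceeded the macrophage-like level in 5 of 5 libraries, by 1.30 to 1.85 times. Without flfl, where it was 14.7 CPM, the migratory DC-like mean was 0.867 CPM. Migratory DC-like cells thus held Il1b RNA at 221 to 1156 CPM and little Nlrp3, which averaged 4.31 ± 4.33 CPM in T-like cells, or 2.71 CPM without flfl.

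Casp1 was spread over most leukocyte classes. Monocyte-like cells averaged 71.4 ± 26.2 CPM, cDC2-like cells 53.7 ± 10.8, macrophage-like cells 44.1 ± 3.69, T-like cells 43.9 ± 13.8, B-like cells 41.4 ± 5.30, migratory DC-like cells 38.0 ± 13.1 and neutrophil-like cells 34.4 ± 18.8 CPM (SD, n = 5 libraries). None of these neighbours in the order differed beyond the SD between libraries. Among the myeloid and tumour classes, monocyte-like cells were highest in 5 of 5 libraries, but apart from the next class in counting interval in none. In flfl that next class was 18 pDC-like cells with 9 UMIs of Casp1. The cDC2-like interval there (42.8 to 63.7 CPM) lay below the monocyte-like interval (96.6 to 132 CPM). In CD4Cre, T-like cells stood above monocyte-like cells, at 49.8 against 46.4 CPM, with counting intervals overlapping. Lower levels were found in cDC1-like cells, at 17.0 ± 7.11 CPM from 4 to 67 UMIs a library, and in tumour epithelial-like cells, at 8.52 ± 3.06 CPM, the last being 0.0897 to 0.259 of the T-like level of their library. Neutrophil-like cells, the highest in CPM of both ligands, stood at 0.232 to 1.55 times the T-like level of Casp1, above it in 2 of 5 libraries.

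Neutrophil-like cells were few and shallow, and most Il1b molecules came from other classes. Macrophage-like cells held 37.3%, 29.1% and 29.7% of all Il1b UMIs in flfl_CD4Cre, flWT_CD4Cre and CD4Cre, and 42.99% and 67.5% in flfl and WT. Monocyte-like cells held 25.4%, 21.3% and 21.4% of them, and 8.34% and 3.67%. Neutrophil-like cells held 4.604%, 19.9% and 4.79%, and 13.8% and 6.47%, although they were only 2.41%, 5.72% and 0.858% of the cells, and 3.68% and 3.09%. Cells given to no class, 13.5% of those kept, held 7.57% to 22.7% of Il1b UMIs.

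Shares of cells with a UMI were compared after each cell was thinned to 2000 UMIs, which left out 0 to 93 shallower cells per class and library in the myeloid and T-like classes given here. Il1b was then found in 58.1%, 70.4% and 45.8% of neutrophil-like cells of flfl_CD4Cre, flWT_CD4Cre and CD4Cre, and in 95.1% and 48.3% of those of flfl and WT. In macrophage-like cells the shares were 17.2%, 28.3% and 19.4%, and 70.2% and 52.2%. T-like cells showed 0%, 3.17% and 4.46%, and 30.4% and 20.3%, so the background took up far more of the macrophage-like share in flfl and WT than in the Cre libraries. The 0 of 55 T-like cells in flfl_CD4Cre allows a share of up to 6.49% (exact 95% binomial limit). Before thinning, the macrophage-like and T-like shares were 96.3% and 71.9% in flfl, at median depths of 11938 and 7639 UMIs.

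Il1rn was found in 87.1%, 91.4% and 62.5% of thinned neutrophil-like cells of flfl_CD4Cre, flWT_CD4Cre and CD4Cre, and in 72.8% and 33.3% of those of flfl and WT, beside 3.17% to 8.33% of T-like cells. In macrophage-like cells the shares were 22.8%, 33.1% and 31.3%, and 21.5% and 14.6%. Ligand and antagonist were also counted in the same macrophage-like cells. Among macrophage-like cells with an Il1b UMI, 35.1%, 39.5% and 40.2% also had Il1rn in flfl_CD4Cre, flWT_CD4Cre and CD4Cre, and 23.1% and 18.2% in flfl and WT. Among macrophage-like cells without Il1b, the shares with Il1rn were 20.3%, 30.6% and 29.2%, and 17.7% and 10.6%. The share was thus higher in cells with Il1b in 5 of 5 libraries, as a description of these cells and without a test. In monocyte-like cells it was higher in 4 of 5 libraries and in neutrophil-like cells in 3 of 5.

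The balance of antagonist to ligand differed between classes and between library sets. Il1rn made up 46.8%, 47.02% and 60.8% of the summed Il1b and Il1rn UMIs in macrophage-like cells of flfl_CD4Cre, flWT_CD4Cre and CD4Cre, but 10.6% and 14.8% in those of flfl and WT. In neutrophil-like cells it was 55.2%, 50.9% and 47.2%, and 11.99% and 20.3%, in the same order. Migratory DC-like cells had a low and similar share in both sets, at 12.1%, 10.1% and 18.0%, and 11.5% and 13.8%. In monocyte-like cells the share was 33.2% in flfl_CD4Cre, below the 48.8% of flWT_CD4Cre and the 53.3% of CD4Cre, with exact 95% binomial intervals apart, and it was 5.52% in flfl and 15.6% in WT. T-like cells, the measure of free RNA, had shares of 71.4%, 62.5% and 55.2% in the Cre libraries, from 5, 15 and 32 UMIs of Il1rn, and of 11.9% and 28.8% in flfl and WT. The background thus showed the same gap between the sets, and annotation, library set and genotype cannot be told apart in the gap between the sets.

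**Figure D2:**
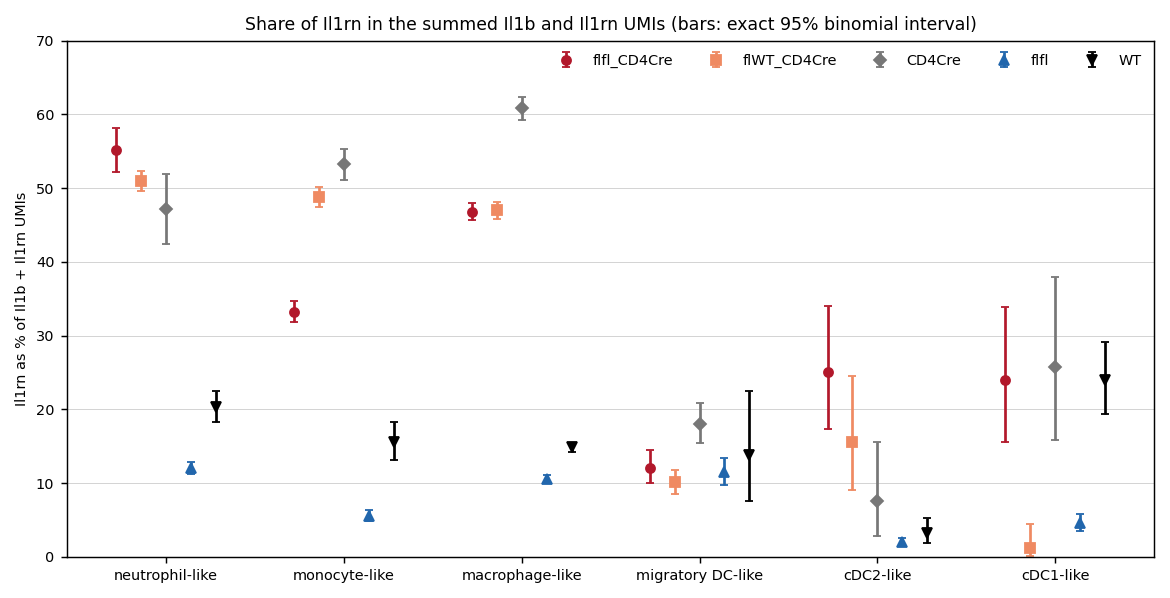
Il1rn as a percentage of the summed Il1b and Il1rn UMIs (vertical axis) in 6 myeloid classes (horizontal axis), with 1 point per library and exact 95% binomial intervals. The 3 Cre libraries lie above flfl and WT in neutrophil-like, monocyte-like and macrophage-like cells, whereas migratory DC-like cells of all 5 libraries lie between 10.1% and 18.0%.

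Neutrophil-like cells were not of 1 kind. Most of them fell into a cluster led by Cxcl2 in flfl_CD4Cre (89.2%), flWT_CD4Cre (99.4%) and CD4Cre (80.6%), into a cluster led by G0s2 in flfl (85.4%), and into a cluster led by the granule genes Ngp, Camp and Ltf in WT (63.2%). Neutrophil-like cells with 2 or more UMIs of the granule genes, a division chosen after its values were seen, were compared with cells that had none. Il1b was 76.8 CPM with and 2466 CPM without them in flfl_CD4Cre, 1128 and 5343 in flWT_CD4Cre and 12.4 and 2295 in CD4Cre. It was 5259 and 10581 CPM in flfl, and 534 and 3580 CPM in WT. The value of 76.8 CPM rests on 3 UMIs in 10 cells, and that of 12.4 CPM on 1 UMI in 7 cells. Those 7 cells had a median depth of 9583 UMIs, against 2150.5 UMIs in the CD4Cre cells without granule genes. Il1b was therefore lower in the granule-gene cells of 5 of 5 libraries, in groups of 7 to 62 cells with and 16 to 127 without. Il1rn was lower in the granule-gene cells in 3 of 5 libraries and higher in the other two, at 3225 CPM with and 2637 CPM without in flfl_CD4Cre, 5505 and 4276 in flWT_CD4Cre, 285 and 1976 in CD4Cre, 631 and 1538 in flfl and 188 and 999 in WT.

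Within the macrophage-like and monocyte-like cells, the members divided along genes of macrophage states. Cells with 2 or more UMIs of Nos2 (inducible nitric oxide synthase) and Mmp12 (macrophage elastase) together were set against cells with none. UMIs were summed over the genes named, here and in the divisions below, so a cell could hold only 1 of the genes. Il1rn was 379 CPM with and 76.4 CPM without in flfl_CD4Cre, 505 and 154 in flWT_CD4Cre, 401 and 159 in CD4Cre, 218 and 112 in flfl, and 184 and 63.0 in WT. Il1a was 1.91 to 10.1 times and Il1r2 3.00 to 11.4 times higher in these cells, in 5 of 5 libraries with intervals apart. Il1b rose less, by 1.00 to 1.63 times, and was higher in 4 of 5 libraries, with intervals apart in 4. Nlrp3 was higher in 5 of 5 libraries, by 1.19 to 1.68 times, with intervals apart in 4. Casp1 was lower in 5 of 5 libraries, at 0.566 to 0.941 times. The antagonist, the decoy receptor and Il1a thus rose with Nos2 and Mmp12 far more than Il1b did.

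Cells with Retnla or Mrc1, genes of alternatively activated macrophages, held less of each ligand. Il1b was 164 CPM with and 571 CPM without them in flfl_CD4Cre, 340 and 714 in flWT_CD4Cre, 148 and 369 in CD4Cre, 1119 and 1886 in flfl, and 595 and 722 in WT. Il1rn was likewise lower in 5 of 5 libraries, at 0.281 to 0.709 times the level of cells with none. Cells with Ccl24, a chemokine for eosinophils, held more Il1r2 in 5 of 5 libraries, by 1.76 to 3.96 times, with no common direction for Il1b. Cells with the cell-cycle genes Mki67 or Top2a held less Il1rn in 5 of 5 libraries, at 0.469 to 0.754 times. Cells with Cxcl9 or Cxcl10, targets of interferon, held more Il1b in 5 of 5 libraries, by 1.05 to 2.21 times, with intervals apart in 4.

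**Figure D3:**
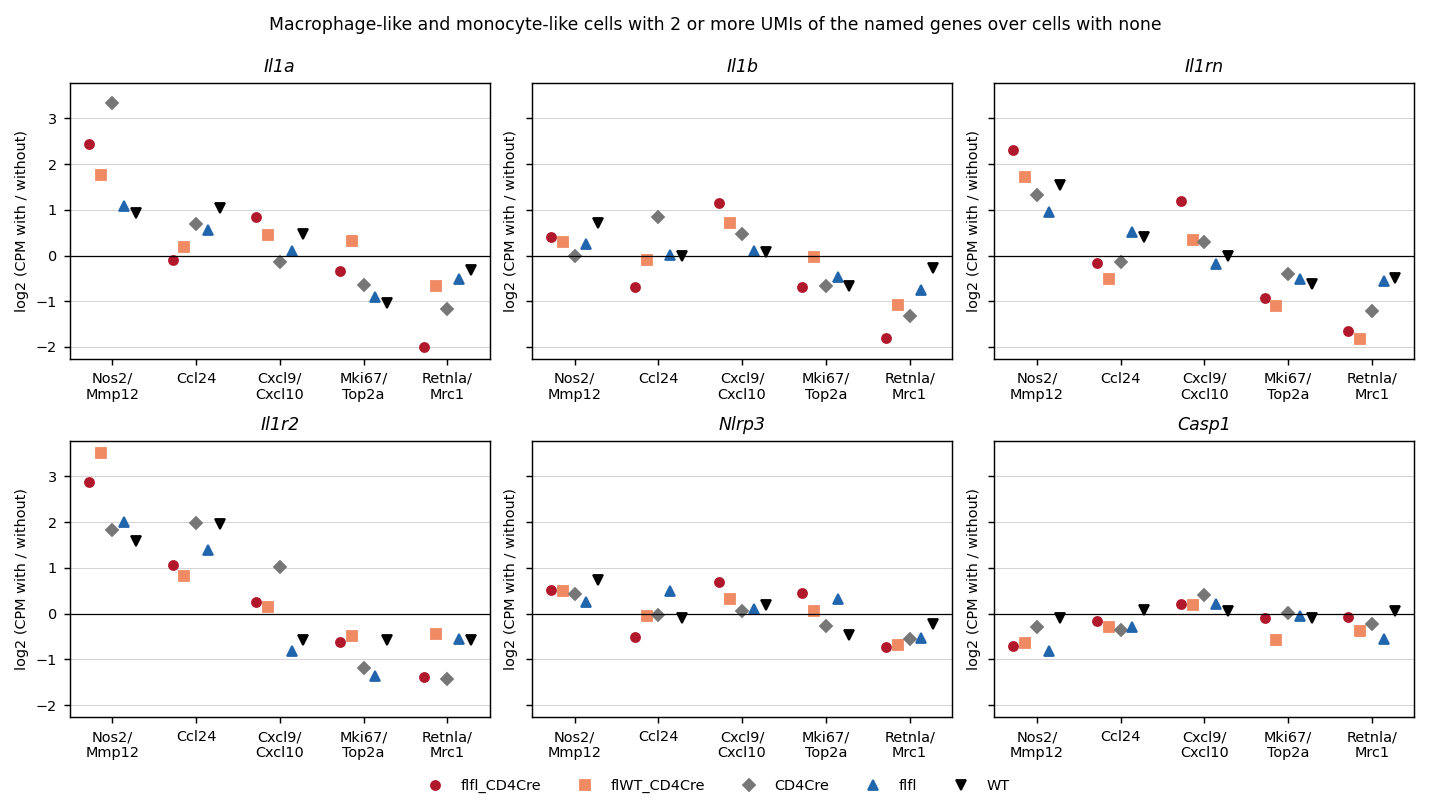
The log2 ratio of CPM (vertical axis) between macrophage-like and monocyte-like cells with 2 or more UMIs of the named genes and cells with none (horizontal axis, 5 gene groups), with 1 point per library. For Il1a, Il1rn and Il1r2 the Nos2/Mmp12 points of all 5 libraries lie above 0, and for Il1b the Retnla/Mrc1 points all lie below 0.

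Genotypes were compared within the set of Cre libraries. The main pair, flfl_CD4Cre against CD4Cre, is the one the labels set up for deletion of PD-L1 in T cells. The Cd274 levels of T-like cells given above do not show that deletion, since their counting intervals overlap, and the sources used here do not say which part of Cd274 is deleted. With 1 library a genotype there is no test. A difference was counted when 1 level was at least 50 CPM, the levels differed by at least 2-fold and the counting intervals were apart. None of the 8 gene and class pairs with 50 CPM passed in macrophage-like, monocyte-like, migratory DC-like and tumour epithelial-like cells, beside 2.61%, 2.87%, 0.512% and 0.793% of all genes at that level. Il1b was 195 CPM in flfl_CD4Cre and 168 CPM in CD4Cre in macrophage-like cells, and 527 and 348 CPM in monocyte-like cells. Il1rn was 172 CPM in flfl_CD4Cre and 261 CPM in CD4Cre in macrophage-like cells, and 263 and 397 CPM in monocyte-like cells. The ligand was thus slightly higher and the antagonist lower in flfl_CD4Cre in both classes, with log2 differences of 0.22 and 0.60 for Il1b and of -0.60 in each class for Il1rn, short of 2-fold.

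The macrophage-like cells of these libraries were not alike in makeup. In flfl_CD4Cre, 27.2% of them lay in a cluster led by Saa3 and Lyve1, and 36.9% in a cluster led by Cxcl9 that held 55.8% of those of CD4Cre. In flWT_CD4Cre, 31.2% lay in a shallow cluster led by haemoglobin genes. Of the macrophage-like and monocyte-like cells, 227 in flfl_CD4Cre, 32 in flWT_CD4Cre and 13 in CD4Cre had 2 or more UMIs of Marco and Lyve1 together, genes of resident macrophages. In flfl_CD4Cre these cells held 33.0 CPM of Il1b, against 329 CPM in cells with none, and 1.996 CPM of Il1r2, against 55.4 CPM. Their Casp1 was higher, at 65.7 CPM against 43.2 CPM. Among cells with no Marco and Lyve1, Il1b was 329 CPM in flfl_CD4Cre, 480 CPM in flWT_CD4Cre and 218 CPM in CD4Cre.

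The heterozygous library did not lie between the others. Against flWT_CD4Cre, 4 of 11 pairs at 50 CPM passed in flfl_CD4Cre, all lower, beside 3.33%, 5.01%, 2.15% and 0.429% of all genes in macrophage-like, monocyte-like, migratory DC-like and tumour epithelial-like cells. They were Il1a in macrophage-like cells (27.5 CPM in flfl_CD4Cre and 62.7 CPM in flWT_CD4Cre), Il1a in monocyte-like cells (35.5 and 88.3 CPM), Il1rn in monocyte-like cells (263 and 750 CPM) and Il1r2 in migratory DC-like cells (22.2 and 51.2 CPM). Of the monocyte-like cells, 24.9% in flfl_CD4Cre and 60.5% in flWT_CD4Cre lay in the cluster led by Cxcl3 and Nos2, and 56.8% and 21.7% in a cluster led by Retnla and Ccr2, and the part of this makeup in the differences was not tested. Against CD4Cre, 4 of 11 pairs passed in flWT_CD4Cre, all higher, beside 1.45%, 2.98%, 3.78% and 0.798% of all genes in the same classes. They were Il1a and Il1b in macrophage-like and in monocyte-like cells, for example Il1b at 344 CPM in flWT_CD4Cre and 168 CPM in CD4Cre. The comparisons share libraries and are not independent, and the file name of the flWT_CD4Cre library disagrees with its label.

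In neutrophil-like cells, where CD4Cre had only 36 cells, 9.61% of genes passed for flfl_CD4Cre against CD4Cre. Among the members Il1rn passed, at 2628 CPM in flfl_CD4Cre and 1195 CPM in CD4Cre. That call ended when levels were averaged per cell, at a log2 difference of 0.21 against 1.14, and it turned to -2.80 when classes came from clusters. The shallow cluster with 89.2% of the neutrophil-like cells of flfl_CD4Cre and 80.6% of those of CD4Cre could not be named. The value of -2.80 thus rests on few cells. Against flWT_CD4Cre, 3 members passed as lower in flfl_CD4Cre, beside 14.1% of genes: Il1a at 87.2 CPM in flfl_CD4Cre and 506 CPM in flWT_CD4Cre, Il1b at 2131 and 4316 CPM and Nlrp3 at 227 and 481 CPM. Il1rn did not pass there, at a log2 difference of -0.77.

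Between flfl and WT, 6 of 15 pairs at 50 CPM passed, beside 2.31%, 10.4%, 6.71% and 3.24% of all genes in macrophage-like, monocyte-like, migratory DC-like and tumour epithelial-like cells. In monocyte-like cells Il1b was 2229 CPM in flfl and 659 CPM in WT, Nlrp3 66.5 and 22.4 CPM, and Il1r2 42.5 and 154 CPM. In migratory DC-like cells, only 19 of them in WT, Il1b was 1156 CPM in flfl and 408 CPM in WT, and Il1rn 149.6 and 65.5 CPM. Tumour epithelial-like cells passed for Il1b at 287 CPM in flfl and 120 CPM in WT, beside T-like levels of 282 and 210 CPM. In macrophage-like cells Il1b was 1354 CPM in flfl and 683 CPM in WT, just under 2-fold. Of these cells, 39.6% and 11.4% lay in a cluster that Ccl24, Il1b and Cxcl2 lead, so these shares are not separate from the Il1b levels. In neutrophil-like cells 5 members passed, beside 22.8% of genes, with Il1b at 8226 CPM in flfl and 1685 CPM in WT, and the clusters that held most of these cells differed between the libraries. Neither library carries Cre, the file name of the WT library disagrees with its label, and the part of these differences in makeup was not tested.

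**Figure D4:**
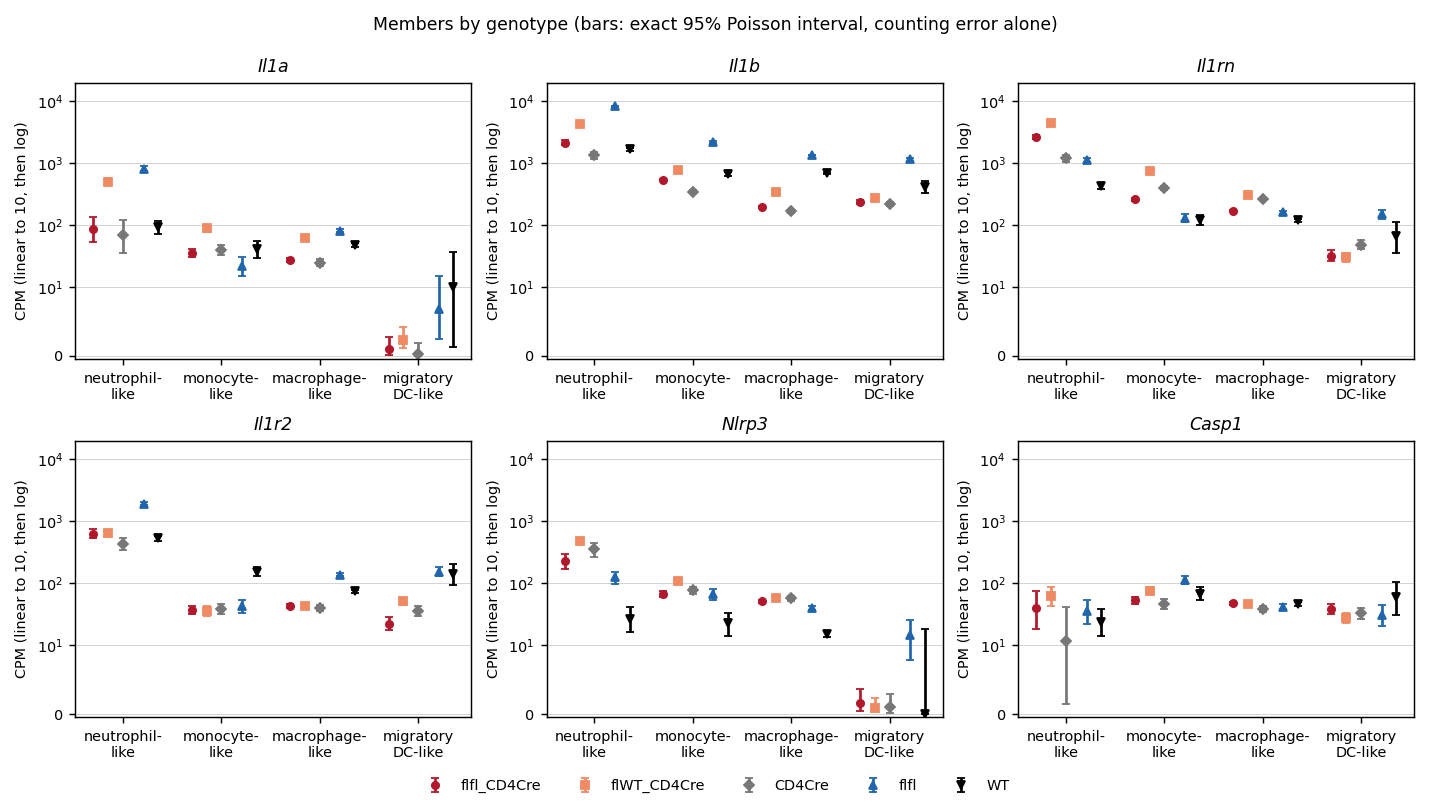
CPM of each gene (vertical axis, linear to 10 and then logarithmic) in 4 myeloid classes (horizontal axis) for the 5 libraries, with exact 95% Poisson intervals that cover counting error alone. Il1b lies highest in flfl in each class shown, while Il1rn in monocyte-like cells is 263 CPM in flfl_CD4Cre, 750 CPM in flWT_CD4Cre and 397 CPM in CD4Cre.

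The bulk libraries fell into 2 kinds that their labels do not give. The PD1_Fc and Ctrl_Fc libraries held 3473884 to 5006301 gene counts each, with 79.9% to 80.4% of reads not aligned, and expressed the T-cell genes Cd3e and Trac. The PDL1_Fc and Control libraries held 14880455 to 18557390, with 8.95% to 11.2% not aligned, and had 3 and 0 counts of Trac in all. Lyz2, a lysozyme of macrophages and neutrophils, averaged 66.0 CPM in PD1_Fc and 63.8 CPM in Ctrl_Fc, against 21580 CPM in PDL1_Fc and 21380 CPM in Control. Cd68, Adgre1, Csf1r and Itgam, further myeloid markers, were likewise higher in PDL1_Fc and Control, with Csf1r at 388 CPM in PDL1_Fc, 389 CPM in Control and 1.59 and 1.495 CPM in PD1_Fc and Ctrl_Fc. The neutrophil markers moved the same way. S100a8 averaged 80.7 CPM in PDL1_Fc and 75.95 CPM in Control, Csf3r 8.77 and 7.90 CPM and S100a9 0.978 and 0.816 CPM. Over the PD1_Fc and Ctrl_Fc libraries these 3 genes had 0 to 3 counts in all per group. The treatment field of PD1_Fc replicate 3 and of all PDL1_Fc libraries names the other protein, and groups here follow the titles. Nothing says that replicates come from separate animals or cultures, so p-values may measure technical spread. In bulk RNA, fewer cells of a type and less RNA per cell cannot be told apart.

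No member differed between PD1_Fc and Ctrl_Fc beyond the spread of their libraries. Il1b was 12.3, 4.12 and 3.40 CPM in PD1_Fc, against 4.32, 2.83 and 15.2 CPM in Ctrl_Fc, from 95 and 97 counts in all. The groups overlapped, each with 1 high library, and the log2 difference was -0.20 (SE 0.70, edgeR adjusted p = 1). Il1rn was 10.3, 3.44 and 3.20 CPM in PD1_Fc, against 3.45, 2.83 and 13.5 CPM in Ctrl_Fc, high in the same libraries. Il1a was 6.78, 2.75 and 2.20 CPM in PD1_Fc, against 2.30, 0.257 and 4.29 CPM in Ctrl_Fc (log2 difference 0.77, SE 0.82, edgeR adjusted p = 0.949). Il1r2 had 0 counts in PD1_Fc and 4 in Ctrl_Fc, Nlrp3 3 and 7, and Casp1 8 and 13, which is too few to show a change of modest size. By edgeR 0 of the members passed the adjusted threshold of 0.05, beside 0.0478% of 14653 genes, or 0.0409% as lower. Only Il1r2 was under 0.05 before adjustment (edgeR adjusted p = 0.926), and DESeq2 called 0 members. The libraries of the groups overlapped for all 6, beside 11.4% of genes whose libraries did not.

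The high libraries were those with the most Lyz2. Lyz2 was 126, 34.8 and 37.4 CPM in PD1_Fc, against 33.4, 28.1 and 130 CPM in Ctrl_Fc. Per 1000 Lyz2 counts, Il1b stood at 90.9 to 118 in PD1_Fc, 101 to 129 in Ctrl_Fc, 106 to 118 in PDL1_Fc and 101 to 137 in Control. Il1rn stood at 81.6 to 98.7, 101 to 104, 94.6 to 102 and 90.7 to 122 in the same groups. The Il1b ratios thus overlapped between all 4 groups, whose Lyz2 levels lay far apart. The Il1rn ratios of PD1_Fc, from 50, 15 and 16 counts, lay below those of Ctrl_Fc, from 12, 11 and 63 counts. The PD1_Fc ratios of Il1rn overlapped those of PDL1_Fc and Control. The Casp1 ratios were 0 to 10.7 in PD1_Fc, 14.9 to 18.4 in Ctrl_Fc, 9.50 to 10.5 in PDL1_Fc and 8.20 to 11.8 in Control, so those of Ctrl_Fc, from 2, 2 and 9 counts, overlapped no other group. The Il1a ratios were 53.8 to 78.95, 9.17 to 68.97, 41.9 to 44.3 and 38.2 to 41.7 in the same order of groups. For gaps between groups in these ratios, the share of all genes was not computed, so none is read as a difference. The part of Lyz2-rich cells in the group levels was not tested.

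Between the libraries titled PDL1_Fc and those of stimulation alone, no member differed beyond the spread either. Il1b was 2453, 2471 and 2406 CPM in PDL1_Fc, against 2394, 2435 and 2526 CPM in Control, a log2 difference of -0.01 (SE 0.31, edgeR adjusted p = 1). Il1rn was 2092, 2181.6 and 2138 CPM in PDL1_Fc, against 2127, 2237 and 2259 CPM in Control. Casp1 was 206, 225 and 215 CPM in PDL1_Fc, against 205, 207 and 204 CPM in Control, the closest agreement between replicates of the 6 genes in Control. Il1a was 871, 912 and 1002 CPM in PDL1_Fc, against 666, 908 and 1012 CPM in Control. Nlrp3 averaged 82.6 ± 5.22 and 77.3 ± 10.998 CPM and Il1r2 31.0 ± 2.19 and 28.4 ± 2.92 CPM in PDL1_Fc and Control (SD, n = 3 each). By edgeR 0 of 6 members passed, beside 0% of genes, with 0 members under an unadjusted p of 0.05 and 0 by DESeq2, and the log2 differences of all 6 lay between -0.05 and 0.12. The libraries of both groups overlapped for all 6 members, beside 7.81% of genes whose libraries did not.

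**Figure D5:**
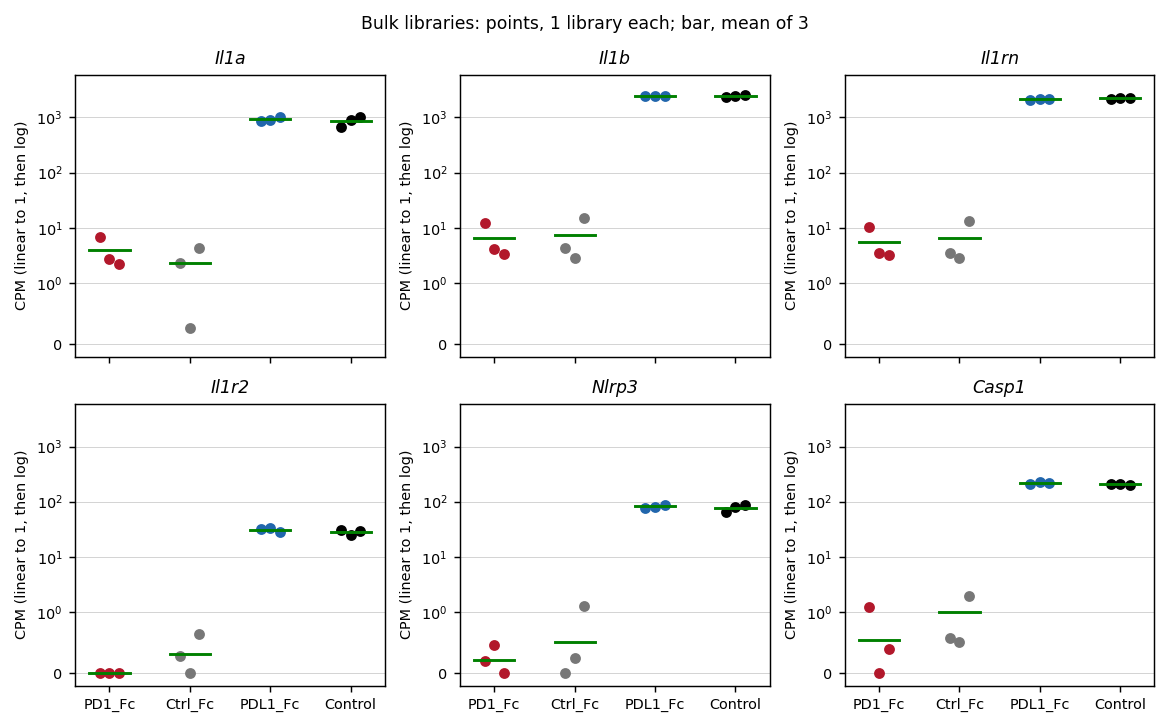
CPM of each gene (vertical axis, linear to 1 and then logarithmic) in the 12 bulk libraries, with 1 point per library and a bar at the mean of 3. The PDL1_Fc and Control libraries lie together and far above PD1_Fc and Ctrl_Fc for each of the 6 genes.

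All 6 members were lower in Ctrl_Fc than in Control, a comparison that crosses the 2 kinds of library. Il1b averaged 7.46 ± 6.77 CPM in Ctrl_Fc and 2451 ± 67.6 CPM in Control (SD, n = 3 each), with an edgeR log2 difference of -9.00 after TMM scaling (SE 0.49, adjusted p = 7.46e-08). Casp1 averaged 1.01 ± 0.80033 CPM in Ctrl_Fc and 205 ± 1.23 CPM in Control (edgeR log2 difference -8.29, SE 0.21, adjusted p = 6.95e-46). The other 4 had log2 differences of -9.22 to -7.09, and groups did not overlap for any member, beside 91.9% of all genes. Beside this, 91.8% of genes passed, 47.4% of genes as lower, so the share is high for all genes and the kind of library and the control protein cannot be told apart. Without replicate 3 of Ctrl_Fc, the library with most Lyz2, the Il1b difference was -10.2. The difference between the differences, PD1_Fc minus Ctrl_Fc set against PDL1_Fc minus Control, passed for 0 of 6 members by edgeR (adjusted p = 0.848 to 1; 1 member, Il1r2, under 0.05 unadjusted; 0 by DESeq2), beside 0.00682% of genes. With groups taken from the treatment field, PD1_Fc against Ctrl_Fc turned to a log2 difference of 8.32 for Il1b (edgeR adjusted p = 0.088), since that field moves libraries between the 2 kinds.

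Other genes of the pathway were taken from lists. In bulk RNA, 1 of 9 signalling genes passed for PD1_Fc against Ctrl_Fc, Traf6, the ubiquitin ligase below MyD88. It averaged 15.1 CPM over PD1_Fc libraries and 7.55 CPM over Ctrl_Fc libraries (log2 difference 1.03, SE 0.20, edgeR adjusted p = 0.0144). None of 9 receptor genes and relatives, 14 inflammasome and pyroptosis genes or 11 NF-kB feedback and target genes passed there, and none of the 4 lists had a gene that passed for PDL1_Fc against Control. The list medians for PD1_Fc against Ctrl_Fc were -0.06 to 0.07 log2, beside 0.05 for all genes.

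In the tumours, the receptor chain Il1r1 had 0 UMIs in neutrophil-like cells and averaged 0.456 CPM in macrophage-like, 7.23 CPM in T-like and 17.1 CPM in tumour epithelial-like cells. Its partner Il1rap was highest in neutrophil-like cells, at 130 ± 115 CPM (SD, n = 5 libraries). Irak2, a kinase below the receptor, averaged 290 ± 236 CPM in neutrophil-like cells and 42.8 ± 9.50 CPM in macrophage-like cells. The adaptor Pycard, which joins Nlrp3 to Casp1, averaged 95.7 ± 52.5 CPM in neutrophil-like cells, 300 ± 34.7 CPM in macrophage-like, 351 ± 46.3 CPM in cDC2-like and 10.9 ± 9.42 CPM in tumour epithelial-like cells. Gsdmd, the pore protein that Casp1 cleaves, stood between 41.5 and 55.6 CPM on average in neutrophil-like, macrophage-like, cDC2-like, T-like and tumour epithelial-like cells. Il33, an alarmin of the same family, averaged 346 ± 254 CPM in tumour epithelial-like cells and 2.51 ± 1.96 CPM in macrophage-like cells. Cxcl2, a chemokine for neutrophils, averaged 9693 ± 5547 CPM in neutrophil-like cells and 442 ± 429 CPM in macrophage-like cells.

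For flfl_CD4Cre against CD4Cre, the list genes that passed in macrophage-like and monocyte-like cells were the neutrophil chemokines Cxcl2 and Cxcl3, both lower in flfl_CD4Cre. Cxcl3 was 53.1 CPM in flfl_CD4Cre and 239 CPM in CD4Cre in macrophage-like cells, and 252 and 1627 CPM in monocyte-like cells. Cxcl2 was 113 CPM in flfl_CD4Cre and 232 CPM in CD4Cre in macrophage-like cells, and 384 and 1300 CPM in monocyte-like cells. They were 2 of 6 and 2 of 7 NF-kB genes at 50 CPM in these classes, and none of 8 and 9 inflammasome genes passed, beside 2.61% and 2.87% of all genes at that level. Of the monocyte-like cells, 24.9% in flfl_CD4Cre and 53.2% in CD4Cre lay in a cluster that Cxcl3 and Nos2 lead. Since Cxcl3 itself leads that cluster, these shares are not separate from the Cxcl3 levels, and the part of makeup was not tested.

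Genes most like each member were sought over 28 sums of a class in a library, among 6406 genes, by Pearson's r of log2 (CPM + 1), as a description of points that share libraries and depth. Il1b was most like Nfkbid and Ccrl2 (r = 0.94 each), Il1a like Rgcc and Gpr84 (0.94 each) and Il1rn like Irak2 (0.95) and Arg2 (0.94). Il1r2 was most like Vasp (0.93), and Casp1 like BC017643 and Prkcd (0.89 each). Among the members, Il1b was closer to Il1r2 (0.88) than to Il1rn (0.60), and Il1a was closer to Nlrp3 (0.86) and Il1rn (0.85) than to Casp1 (0.48).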

How the data were processed

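The 5 single-cell matrices hold UMI counts as deposited, made with Cell Ranger (3.1.0 in 3 of them, per the file headers). The 12 bulk tables hold read counts per gene as deposited, with STAR and HTSeq named in the submitters' processing notes and mm10 as the build. The members and lists were chosen with earlier results of these data known, and all 6 members are named. The other genes named come from 4 pathway lists, or are the 3 most correlated with each member.

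Bulk counts were tested with edgeR 4.0.16 in R 4.3.3 (TMM, filterByExpr, quasi-likelihood over 12 libraries, Benjamini-Hochberg over 14653 genes), with DESeq2 1.42.0 as an alternative. CPM is per gene total. SE is the log2 difference over the root of F. Lines that name no gene (42.6% to 88.2% of each table) stayed out. Replicate numbers did not pair the libraries, with correlations of -0.126 to 0.0892 over 18 pairs. On simulated data edgeR found 75% of 2-fold changes for PD1_Fc against Ctrl_Fc among 14464 genes. That simulation gave every gene the same fixed spread and changed no gene of very low level. The members had SEs of 0.68 to 1.81 log2 in that comparison, so the share does not apply to them.

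Barcodes under 200 genes or over 10% mitochondrial UMIs were left out, 703 doublets by score were removed (scanpy 1.11.5), and barcodes with 8 times fewer UMIs than in another library were dropped as copies. A class needed at least 3 of its markers and the highest mean log level of its markers, capped per marker, by a margin of 1.25 times. With enough markers, 899 cells fell short of that margin. Of the 32 Leiden clusters, 29 could be named and 91.6% of cells named by both rules had the same class. Groups came from titles and genotype labels. For each division of cells, UMIs were summed over the genes, and cells with a sum of 1 UMI were left out. Intervals and the limits given by a count of 0 cover counting error alone.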

Additional observations from a re-analysis of the deposited data

How the results depend on the processing

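Of 662 alternative values for 60 results, 602 were labelled as unchanged. For a bulk log2 difference that label means the same direction and call. For a bulk count of genes it means the main count or one near it. The members called in bulk (0 for PD1_Fc against Ctrl_Fc and for PDL1_Fc against Control, 6 for Ctrl_Fc against Control, 0 for the difference of differences) were the same in number under every alternative run, and the members highest in neutrophil-like cells stayed at 5. With the replicate block, which the numbers do not justify as a pairing, the counts were again 0, 0, 6 and 0 and Il1b for PD1_Fc against Ctrl_Fc was -0.19 log2, so the block changed no call. All genes called for PD1_Fc against Ctrl_Fc, 7 in number, became 18 with DESeq2, 27 with only those groups fitted, 2 without the 4 libraries whose labels disagree and 0 by the treatment field. For the difference of differences DESeq2 called 5 genes against 1, and without a low-count filter PDL1_Fc against Control had 1 gene.

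Groups by the treatment field turned PD1_Fc against Ctrl_Fc to log2 differences of 8.32 for Il1b, 8.30 for Il1rn, 6.51 for Il1r2, 7.19 for Nlrp3 and 7.68 for Casp1, none past the threshold. The same turned PDL1_Fc against Control to -9.31 for Il1a, -11.41 for Il1r2, -12.86 for Nlrp3 and -9.65 for Casp1. Those groups mix the 2 kinds of library by construction. Without the 4 libraries Il1b for PD1_Fc against Ctrl_Fc was 0.084, and PDL1_Fc against Control had no value.

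Leaving out 1 library at a time, PD1_Fc against Ctrl_Fc ranged from -1.07 to 1.04 for Il1b, -1.08 to 0.99 for Il1rn, -2.25 to 0.69 for Nlrp3 and -2.23 to 0.17 for Casp1. PDL1_Fc against Control ranged from -0.085 to 0.23 for Il1a, -0.068 to 0.0072 for Il1b, -0.013 to 0.15 for Il1r2 and -0.046 to 0.18 for Nlrp3. The difference of differences ranged from -0.050 to 1.70 for Il1a, -1.06 to 1.05 for Il1b, -1.02 to 1.04 for Il1rn, -2.34 to 0.60 for Nlrp3 and -2.29 to 0.11 for Casp1. The extremes for Il1b and Il1rn with PD1_Fc came without PD1_Fc replicate 1 and Ctrl_Fc replicate 3, the libraries with most Lyz2.

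In single cells, the 0 members counted for flfl_CD4Cre against CD4Cre became 4 with flWT_CD4Cre in place of CD4Cre. In neutrophil-like cells Il1rn turned to -2.80 with classes from clusters and to -0.77 against flWT_CD4Cre, and the cause was not tested. The cluster with most neutrophil-like cells of flfl_CD4Cre and CD4Cre had no name in that alternative. Keeping barcode copies, an alternative chosen after seeing the data, changed no call. Depth limits the members in PD1_Fc and Ctrl_Fc, where Il1r2, Nlrp3 and Casp1 had 0 to 9 counts a library, and 1 library per genotype leaves each genotype difference without a replicate.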
